A study of Homo sapiens with 20 samples.

Results

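A set of 9 p53-regulated genes was followed through maps of an active chromatin mark in colorectal cancer cells: CDKN1A, MDM2, PPM1D, BTG2, SESN1, SESN2, GDF15, ZMAT3 and TP53INP1. They were chosen by name as arrest and feedback genes of the p53 response, and make up 9 of the 20007 protein-coding genes of GENCODE examined on the autosomes, X and Y. For each gene, every peak and every super-enhancer (SE, a cluster of neighbouring enhancers) that overlapped the gene body or the 10 kb on either side was taken from each library.

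The transcription factor p53 is stabilised when DNA is damaged and binds response elements near its target genes. Its arrest targets halt the cell cycle and limit growth, while its feedback targets switch p53 itself off again. Platinum drugs such as oxaliplatin damage DNA by forming adducts with it. Acetylation of histone H3 at lysine 27 (H3K27ac) marks active promoters and enhancers.

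The cells were HCT-116, a human colorectal cancer line, either wild type (WT) or with FBXW7 knocked out (KO). FBXW7 is the substrate-recognition part of a ubiquitin ligase. Both lines came from the same supplier, and no source used here gives whether the KO line is 1 clone. They received esiRNA, silencing RNAs cut by an enzyme from a longer duplex, over 48 h, directed either at a luciferase the cells lack (esiCT) or at HDAC4, a class IIa histone deacetylase (esiHDAC4). They were then left with solvent alone (UNT) or given 50 µM oxaliplatin (OXPT) for the last 24 h. The 8 groups were thus WT esiCT UNT, WT esiCT OXPT, WT esiHDAC4 UNT, WT esiHDAC4 OXPT, KO esiCT UNT, KO esiCT OXPT, KO esiHDAC4 UNT and KO esiHDAC4 OXPT, and each had 2 H3K27ac ChIP-seq libraries, replicates A and B. The labels also speak of 3 pooled experiments, so p-values measure the spread between these libraries, which may be partly technical.

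Lists held between 1752 and 27927 peaks and between 66 and 1265 SEs. The 4 KO libraries of replicate B were the shallowest, with 1752 to 8216 peaks and a lowest background of 1.02 to 1.51 reads, against 1.52 to 3.07 reads in the other libraries. A gene missing from such a list went undetected at the depth of that library and may still carry the mark. All 12 epithelial and colorectal marker genes examined had a peak in at least 1 library, with KRT8 and KRT18 in all 16. Among 12 markers of blood, fibroblast, endothelial, liver, glial and muscle cells, CD3E, COL1A2, DCN and ALB had none, while CDH5 had one in 12 libraries. H3K27ac at FBXW7 or HDAC4 checks neither the knockout nor the silencing.

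The height of a peak is given as its summit fold, the ratio of read pileup at the summit to the local background, and the largest summit fold in a gene's window stands for that gene. CDKN1A and GDF15 had a peak in all 16 libraries, as did only 484 of the 20007 genes. MDM2 and PPM1D had one in 15, TP53INP1 in 14, SESN1 and ZMAT3 in 13, BTG2 in 11 and SESN2 in 7. At their summits these peaks held between 9 and 45 reads. CDKN1A and GDF15 had the highest medians of the set, 6.37 and 5.96, and SESN2 the lowest, 3.77 over the 7 libraries in which it was called.

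**Figure D1:**
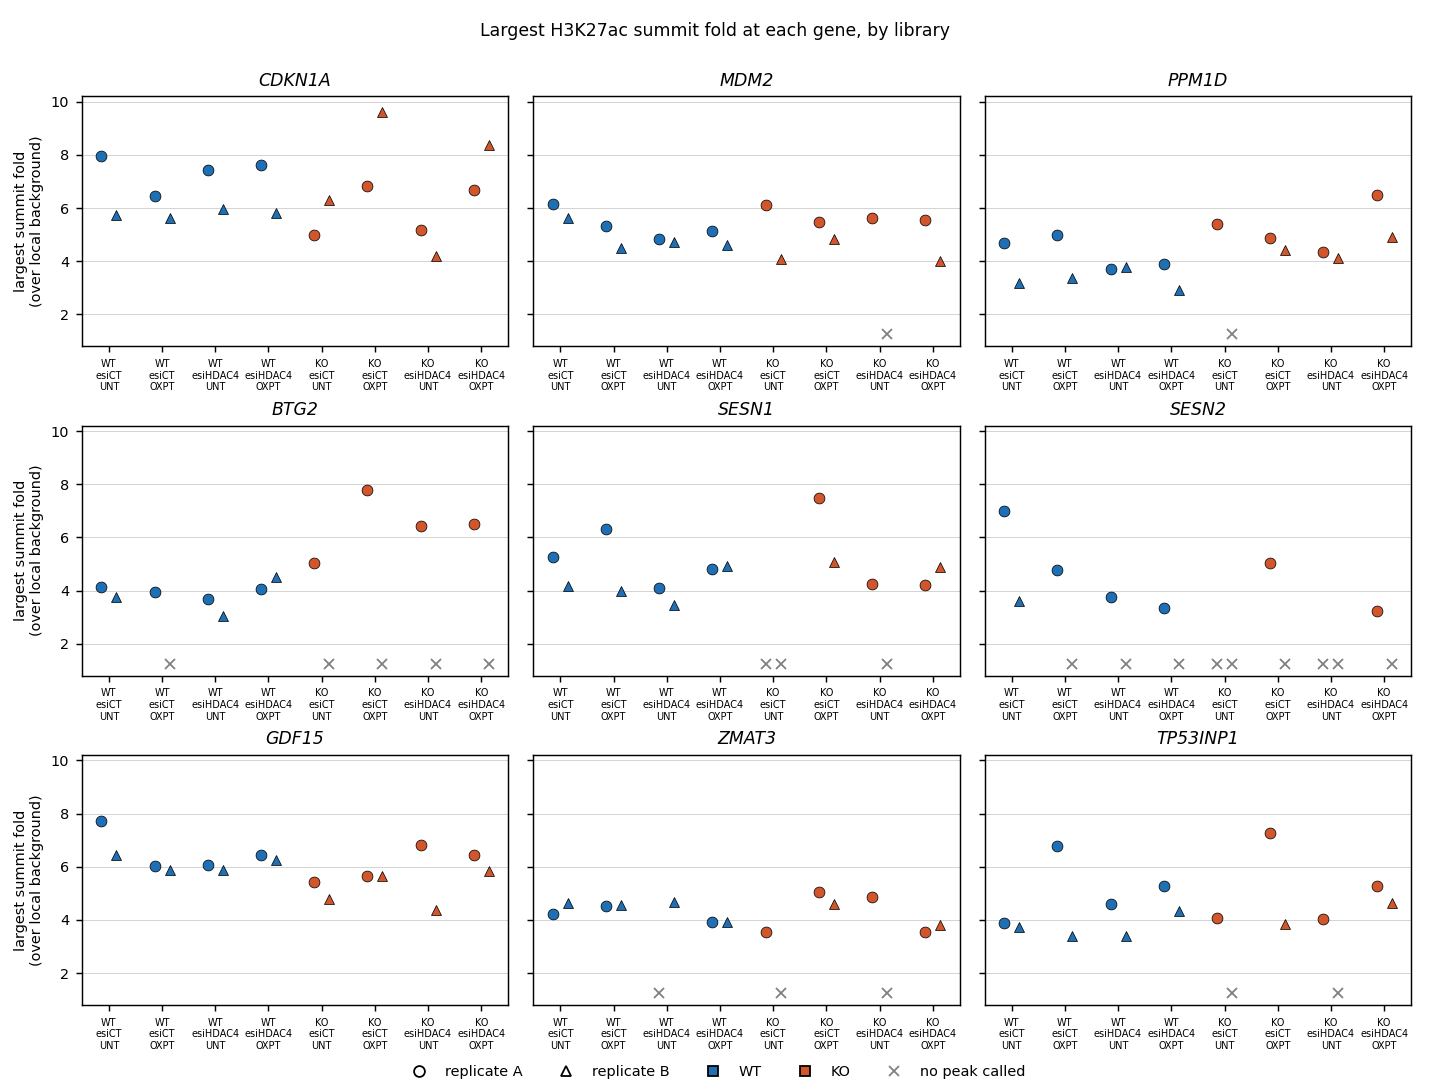
Largest H3K27ac summit fold in the window of each of the 9 genes (vertical axis, ratio to local background) in the 16 libraries, by group on the horizontal axis. Circles are replicate A and triangles replicate B, blue is WT and orange KO, and a grey cross marks a library without a peak. The 4 KO libraries of replicate A stand above all WT libraries at BTG2, where the KO libraries of replicate B have no peak.

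Peaks of all libraries were joined wherever they overlapped, which gave 36 regions in the 9 windows. Of these, 15 were called in at least 8 libraries and 12 in a single one. Most of the well-supported regions lay at annotated start sites. The region over the CDKN1A start (chr6:36674711-36680443, hg38) was called in 16 libraries, that over the GDF15 start (chr19:18383971-18388454) in 16, and that just downstream of the first MDM2 start (chr12:68808212-68811239), which spans an internal start, in 15. The start-site regions of PPM1D (chr17:60600291-60602000) and TP53INP1 were each called in 14, that of ZMAT3 (chr3:179069478-179072505) in 12 and that of BTG2 (chr1:203305588-203307476) in 11. TP53INP1 shares its start region with NDUFAF6, so the peak cannot be assigned to one gene. At SESN1 the main region (chr6:109007950-109009519, 11 libraries) covered the start of the short transcripts within the gene, centred 86111 bases into the gene from the canonical start. The region at the canonical SESN1 start (chr6:109094634-109096226), shared with CEP57L1, was called in 5 libraries. Distal regions were called in 14 libraries upstream of CDKN1A (chr6:36665641-36669569, centred at -11109 bases from the canonical start), in 11 upstream of MDM2 (chr12:68800783-68802968, -6301 bases) and in 15 upstream of GDF15 (chr19:18363432-18366477, -21203 bases).

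The regions were searched on both strands for the p53 response element, a 20-base site made of a pair of 10-base consensus elements with no spacer, allowing up to 2 mismatches. In all 8 sites were found, 3 at CDKN1A, 2 at MDM2, 2 at GDF15 and 1 at ZMAT3, and none at the other 5 genes. In tiles of 500 bases, 7 of 106 tiles of these regions held a site (6.60%), against 2.10% of 76595 tiles over all peak regions, and 0.649% of 35116 RefSeq promoters held one. A match is a description of the letters only. The 5 sites shown carry the element in capitals with 5 flanking bases on each side, and stand for the regions whose values follow. They are the ZMAT3 site without a mismatch, a CDKN1A site in the distal region and one that is long known as a p53 response element of this gene, the intronic MDM2 site 69 bases from the internal start, and the GDF15 site with the fewest mismatches.
ZMAT3 intron, chr3:179070188-179070207, minus strand, 0 mismatches: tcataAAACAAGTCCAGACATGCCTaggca
CDKN1A distal, chr6:36667258-36667277, plus strand, 1 mismatch: acaaaAGACAAGCCCGGGCAAGGCCagcgg
CDKN1A start region, chr6:36676449-36676468, plus strand, 2 mismatches: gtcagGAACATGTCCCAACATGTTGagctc
MDM2 intron, chr12:68808923-68808942, plus strand, 2 mismatches: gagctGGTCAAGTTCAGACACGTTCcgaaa
GDF15 upstream of the canonical start, chr19:18373947-18373966, plus strand, 1 mismatch: gcctcAGACCTGCCCGGACATGTCCaagtc
The ZMAT3 region with its site was called in 12 libraries, the distal CDKN1A region in 14, the MDM2 region in 15 and the GDF15 region in 15.

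Comparisons of height used limma on log2 summit fold, after each library was scaled to a common median over the 484 genes called in every library, with the replicate letter as a block. A gene entered when it had a peak in at least 12 libraries and in each group, which 5416 genes did, among them CDKN1A, MDM2, PPM1D, GDF15, ZMAT3 and TP53INP1. A library without a peak was left out of that gene's fit. BTG2, SESN1 and SESN2 did not meet these conditions and are described by their values. Adjusted p-values are Benjamini-Hochberg values over all 5416 genes, with a threshold of 0.05. Without the scaling, the median gene differed by -0.15 on the log2 scale between OXPT and UNT, by -0.35 between them in WT esiCT and by -0.12 between KO and WT, so that every difference given here is relative to that shift.

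Between OXPT and UNT the fitted differences of the 6 genes tested were 0.11 to 0.64 on the scaled log2 axis, with a median of 0.22 against 0.04 over all genes. Unscaled summit folds had lower treated than untreated medians at MDM2, ZMAT3 and GDF15. None passed the threshold, nor did any other gene, so the share called was 0%. At an unadjusted p below 0.05, limma gave 435 genes (8.03% of all) and 2 of the 6, TP53INP1 and CDKN1A. With scaling, positive differences were found at 6 of 6 genes and at 62.4% of all genes, and without it MDM2 (-0.08) and ZMAT3 (-0.04) were negative.

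TP53INP1 (chr8:94925972-94949378, minus strand) encodes a stress-induced protein that promotes p53 activity, autophagy and cell death. Its only region lay over the start site (chr8:94947837-94950696). In untreated WT cells its summit fold was 3.87 and 3.74 after esiCT and 4.60 and 3.41 after esiHDAC4, replicate A before B. In oxaliplatin-treated WT cells it was 6.79 and 3.39 after esiCT and 5.27 and 4.32 after esiHDAC4. In KO cells the untreated values were 4.08 after esiCT and 4.03 after esiHDAC4, both in replicate A, and the untreated KO libraries of replicate B, with 6126 and 1752 peaks in all, had none. The treated KO values were 7.26 and 3.84 after esiCT and 5.28 and 4.63 after esiHDAC4. Before scaling, the WT esiCT pair of replicate B fell from 3.74 to 3.39. On the scaled log2 axis every oxaliplatin library stood above its untreated partner in 6 of 6 pairs, by 0.31 to 1.24. The 2 conditions still overlapped when all libraries were pooled. How many of all genes rise in every pair was not determined, here or for CDKN1A. The fitted scaled difference was 0.64 ± 0.14 (SE, 14 libraries), a ratio of 1.55, the gene ranked 3 of 5416 by p, and the adjusted p was 0.124 (limma). It reached an adjusted p of 0.0326 when genotype, esiRNA and drug entered as 3 additive terms, where it was 1 of 4 genes called, together with its neighbour NDUFAF6, which has the same peak. Leaving out WT esiCT UNT replicate B also brought it to 0.0434, and over the 22 alternatives it ran up to 1.00. Within replicate A, where the 4 treated and 4 untreated libraries did not overlap, the difference was 0.71 (exact permutation test, two-sided, p = 0.0286, the lowest value 4 against 4 can give). Of the 5901 genes called in all libraries of replicate A, 2.85% did not overlap in this way.

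CDKN1A (chr6:36676460-36687337, plus strand) encodes p21, the inhibitor of cyclin-dependent kinases that carries out p53-driven arrest. Its untreated summit folds were 7.95 and 5.73 in WT esiCT, 7.44 and 5.98 in WT esiHDAC4, 4.97 and 6.29 in KO esiCT, and 5.19 and 4.18 in KO esiHDAC4, replicate A before B. The treated values were 6.45 and 5.64 in WT esiCT, 7.63 and 5.82 in WT esiHDAC4, 6.84 and 9.60 in KO esiCT, and 6.68 and 8.35 in KO esiHDAC4. The 2 tallest CDKN1A peaks of all libraries were those of oxaliplatin-treated KO cells in replicate B. Before scaling, the treated value was below the untreated one in 3 of the 4 WT pairs and above it in all 4 KO pairs. After scaling it was above in 8 of 8 pairs, by 0.13 to 0.90 on the log2 scale. The largest summit was not always in the same region, so some pairs compared different regions. In WT esiCT replicate B it lay at chr6:36680626-36683113 untreated and in the upstream region (chr6:36665641-36669569) treated. The fitted scaled difference was 0.42 ± 0.12 (SE, 16 libraries), ranked 25 of 5416 by p, with adjusted p = 0.293 by limma. It was 0.29 within replicate A and 0.51 within replicate B.

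**Figure D2:**
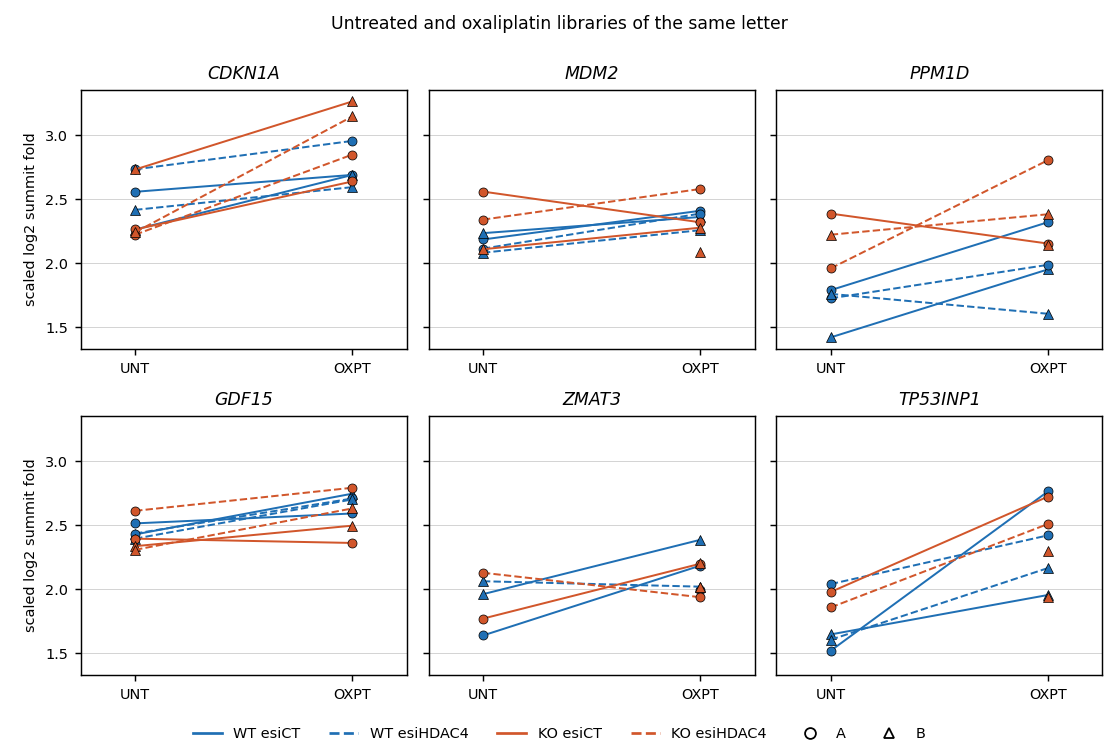
Scaled log2 summit fold (vertical axis) of the 6 genes tested in untreated and oxaliplatin-treated libraries (horizontal axis). Lines join the libraries of the same genotype, esiRNA and replicate letter, and a point without a line has no partner with a peak. Lines rise in 8 of 8 pairs at CDKN1A and in 6 of 6 at TP53INP1.

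The CDKN1A regions were also fitted one by one. The start region was 0.43 ± 0.13 higher (SE) and the upstream region 0.39 ± 0.15 higher in treated libraries on the log2 scale, with adjusted p = 0.284 and 0.598 (limma over 4095 regions). Of those 4095 regions, 1 was called between OXPT and UNT, a region at OSBPL3, so the share called was 0.0244%, and 7.08% had an unadjusted p below 0.05. Among the 9 regions of these genes that could be fitted, 3 had an unadjusted p below 0.05, the CDKN1A pair and the TP53INP1 start region, and none was called.

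The upstream and start regions of CDKN1A were then set against each other within each library. In WT libraries the upstream fold was 7.95, 6.45, 7.44 and 7.63 in replicate A against start-region folds of 6.16, 6.22, 4.29 and 4.13, in the order esiCT UNT, esiCT OXPT, esiHDAC4 UNT, esiHDAC4 OXPT. In replicate B of WT the upstream folds were 4.19, 5.64, 4.63 and 4.11 against 4.68, 4.45, 5.98 and 5.82. In KO libraries of replicate A the upstream folds were 4.45, 5.71, 4.50 and 4.73 against 4.97, 6.84, 5.19 and 6.68 at the start. Replicate B of KO had upstream peaks in the treated libraries only, 5.99 after esiCT and 4.42 after esiHDAC4, against 9.60 and 8.35 at the start. The upstream region thus stood above the start region in 5 of 8 WT libraries, 4 of them of replicate A, and in 0 of 6 KO libraries. The log2 ratio of upstream to start region within a library, in which no scaling between libraries enters, was 0.18 ± 0.51 (SD, n = 8) in WT and -0.45 ± 0.30 (SD, n = 6) in KO. This ratio was examined after its values were seen. Its difference had p = 0.0171 and an adjusted p of 0.0514 over 3 contrasts (two-sided exact permutation test within letter, 1050 arrangements), which misses the threshold. Set apart by region, KO minus WT was -0.36 ± 0.15 upstream and 0.34 ± 0.13 at the start (SE), with adjusted p = 0.212 and 0.162 by limma. Of all regions fitted, 0.904% were called between the genotypes and 17.0% had an unadjusted p below 0.05.

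**Figure D3:**
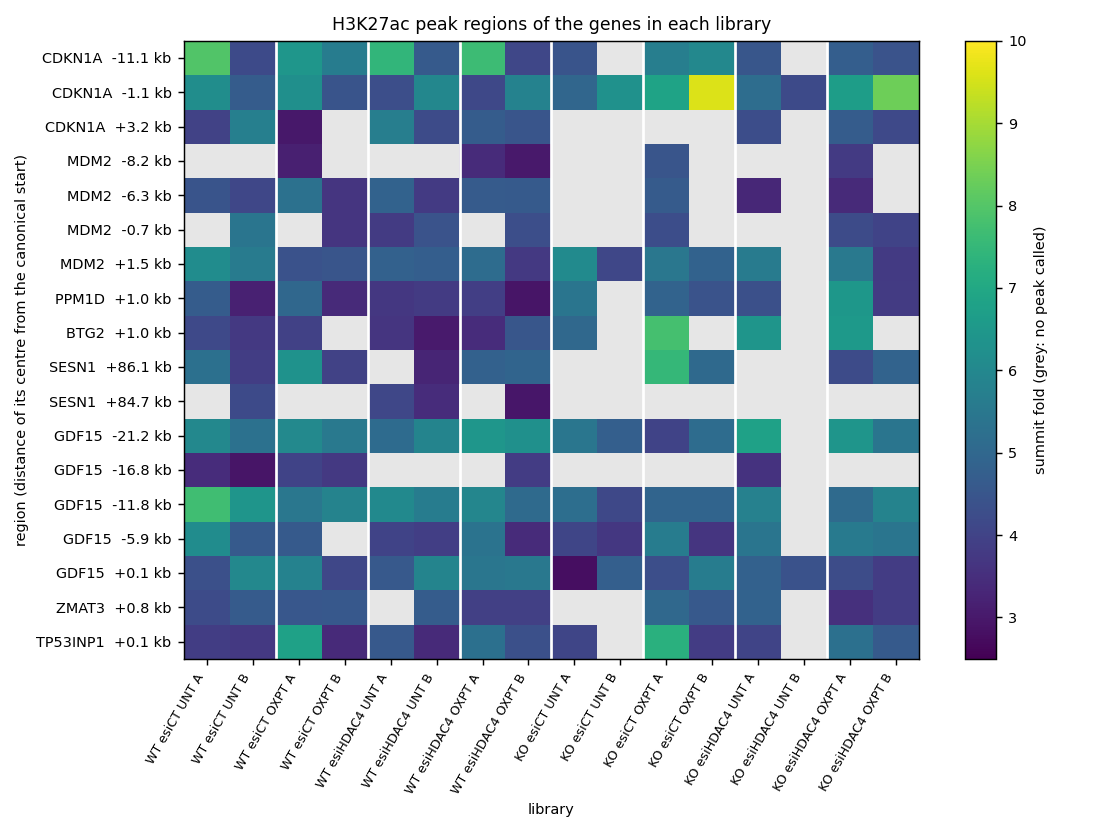
Summit fold (colour, ratio to local background) of the 18 regions that were called in at least 8 libraries or differed by at least 4 of 8 libraries between conditions, in each of the 16 libraries. Rows give the gene and the distance of the region's centre from the canonical start in kb, columns the libraries, and grey cells a library without a peak. The MDM2 region farthest upstream is coloured in 5 oxaliplatin libraries and in no untreated one.

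BTG2 (chr1:203305491-203309602, plus strand), an antiproliferative gene that restrains G1 progression, had its single well-supported region at the start site. Its summit folds in WT libraries were 4.15, 3.95, 3.67 and 4.07 in replicate A and 3.76, none, 3.04 and 4.52 in replicate B, in the same order of groups. In KO libraries they were 5.05, 7.79, 6.42 and 6.52 in replicate A, and no peak was called in any of the 4 libraries of replicate B. All 4 KO values lay above all 7 WT values. Within replicate A the scaled log2 values were 0.82 higher in KO, a ratio of 1.77, and the exact permutation test (two-sided) again gave p = 0.0286. Of the 5901 genes called in all libraries of replicate A, 10.3% did not overlap between the genotypes, and BTG2 was the 1 of the 6 genes here with peaks in all 8 of them that did so. In a fit without the 4 KO libraries of replicate B, chosen after seeing the data, the difference was 0.82 ± 0.15 (SE, 11 libraries) with adjusted p = 0.0349 (limma), and 0.412% of 6308 genes were called. In that fit KO was represented by replicate A alone. The gene also entered 5 fits that left out 1 library without a BTG2 peak (0.76 to 0.79, limma). These hold the same 11 BTG2 values and so add no support. All 6 fits rest on the KO libraries in which the peak was called, so they give a size and do not test KO against WT. The 4 KO libraries of replicate B, where BTG2 was not called, had median summit reads of 11 to 14 over all peaks, and the part of depth in this result was not tested.

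MDM2 (chr12:68808177-68845544, plus strand) encodes the ubiquitin ligase that marks p53 for degradation, the core of the feedback loop. Its summit fold was lowest at 4.08, with a median of 5.62 and a highest value of 6.14, over 7 untreated libraries. The 8 treated ones had a median of 5.00 and reached 5.55, so that the conditions overlapped. The only library without an MDM2 peak was KO esiHDAC4 UNT replicate B. Its scaled height differed by 0.11 ± 0.12 (SE, adjusted p = 0.864, limma) between OXPT and UNT, with a 95% confidence interval of -0.13 to 0.35, and its sign turned without the scaling (-0.08). In WT esiCT replicate A the largest summit lay at chr12:68808212-68811239 untreated and in the region at -6301 bases treated. The number of MDM2 peaks had a larger difference for its error than their height. The treated libraries had 4, 5, 4, 5, 4, 1, 4 and 2 peaks and the untreated ones 4, 4, 3, 4, 1, 1, 2 and 0, from WT esiCT to KO esiHDAC4 with replicate A before B. In the same order, whole KO lists held 21875, 8216, 18343 and 6084 peaks treated and 12639, 6126, 21290 and 1752 untreated. Whole WT lists held 24346, 10562, 20136 and 19352 treated and 27927, 25333, 20234 and 27335 untreated. The part of list length in the MDM2 peak number was not tested. On the log2 scale of peak number plus 1, scaled per library, the difference was 0.56 ± 0.21 (SE) with adjusted p = 0.447 (limma). It was the single one of the 6 genes with an unadjusted p below 0.05, against 7.74% of all genes, and 0% were called.

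Among the MDM2 regions called in at least 2 libraries, 1 was found in treated libraries alone. This region, centred at -8202 bases from the start (chr12:68799195-68800755), was called in 5 of 8 treated libraries, with summit folds of 3.15 in WT esiCT replicate A, 3.44 and 3.01 in WT esiHDAC4 replicates A and B, 4.49 in KO esiCT replicate A and 3.77 in KO esiHDAC4 replicate A. No untreated library had it. The exact conditional test within letter gave p = 0.0143 and an adjusted p of 1. The neighbouring region at -6301 bases had a peak in each of the 8 WT libraries but in 3 of 8 for KO, all of replicate A, and the same exact test gave p = 0.0143 with an adjusted p of 0.258. Over all 20090 regions tested for presence, none was called in any of the 3 contrasts (0%). At an unadjusted p below 0.05 there were 13.6% between KO and WT, 2.12% between OXPT and UNT and 0.219% between esiHDAC4 and esiCT. Of the 12 regions of these genes in that test, 1, 2 and 0 were below it, the second of the OXPT regions being at SESN1. The share of 1 in 12 between KO and WT is near that of all regions.

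SESN1 (chr6:108984309-109094846, minus strand) and SESN2 (chr1:28259518-28282491, plus strand) encode sestrins, stress proteins that hold back mTORC1 signalling. The internal SESN1 start region was called in 8 of 8 treated and 3 of 8 untreated libraries, with exact p = 0.0306 and adjusted p = 1. In KO cells it was present in 4 of 4 treated libraries, with folds of 7.50 and 5.06 after esiCT and 4.20 and 4.90 after esiHDAC4, and in 0 of 4 untreated ones. In WT cells the treated folds were 6.33, 3.99, 4.83 and 4.91, and 3 of 4 untreated libraries had it, at 5.28, 3.86 and 3.29. SESN1 as a whole, other regions included, had a peak in 8 of 8 treated and 5 of 8 untreated libraries. The untreated libraries without a SESN1 peak were all KO, namely KO esiCT UNT replicates A and B and KO esiHDAC4 UNT replicate B, which held 12639, 6126 and 1752 peaks. SESN2 was called in 5 WT and 2 KO libraries, with folds of 6.99 and 3.61 in WT esiCT UNT, 4.79 in WT esiCT OXPT replicate A, 3.77 and 3.35 in WT esiHDAC4 replicate A before and after the drug, and 5.05 and 3.23 in replicate A of the treated KO groups. Its 7 calls included 1 from replicate B, and its start site was called in 5 libraries.

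ZMAT3 (chr3:178960121-179072215, minus strand) encodes a zinc finger protein that binds RNA and takes part in p53-dependent growth control. Its start region, which holds the site without mismatches, was called in 8 of 8 treated and 4 of 8 untreated libraries (exact p = 0.0918, adjusted p = 1). The folds at the gene were narrow, from 3.53 to 5.04, with medians of 4.23 over 8 treated and 4.65 over 5 untreated libraries. Scaled, the treated libraries were 0.16 ± 0.13 higher (SE, adjusted p = 0.822, limma), and the sign turned without scaling (-0.04).

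GDF15 (chr19:18374731-18389176, plus strand), a secreted stress cytokine, was the most densely marked locus, with 139 peaks over 16 libraries and 1 to 13 in a library. Its summit fold lay between 4.38 and 7.71 in untreated libraries (median 5.97) and between 5.64 and 6.43 in treated ones (median 5.94), so that the unscaled ranges overlapped. After scaling, treated libraries were higher in 7 of 8 pairs, by a fitted 0.20 ± 0.10 (SE, adjusted p = 0.654, limma). The largest summit lay in different regions in different libraries, so some pairs compared different regions. In WT esiHDAC4 replicate B it was in the start region untreated and in the region at -21203 bases treated. Fitted one by one, the GDF15 regions differed by 0.08 to 0.21 between OXPT and UNT. The window also holds PGPEP1 and LRRC25, and the upstream regions lie towards PGPEP1.

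GDF15 alone of the 9 genes carried an SE in nearly every library, 15 of 16. An SE was found at 1617 genes in at least 1 library and at 58 in at least 15. The GDF15 SEs were 11.1 to 29.1 kb long, with a median of 20.2 kb. They overlapped the annotated GDF15 gene, which begins at its most upstream start, in each of the 15 libraries, and also PGPEP1. Only the SE of WT esiCT OXPT replicate A (chr19:18363630-18389525) covered the region over the canonical GDF15 start (chr19:18383971-18388454). The others ended at chr19:18383951 or before, upstream of that region. The one library without it was KO esiHDAC4 UNT replicate B, whose list held 66 SEs. At CDKN1A an SE was called in 2 libraries, WT esiCT OXPT replicate A (chr6:36663261-36682718) and KO esiHDAC4 OXPT replicate B (chr6:36666788-36682140). They spanned 19.5 and 15.4 kb and overlapped both the upstream and the start region, with all 3 p53 sites inside. The MDM2 window touched an SE in 2 libraries, KO esiCT OXPT and KO esiHDAC4 OXPT of replicate A, but these SEs ended before the gene and overlapped SLC35E3. They covered the MDM2 region at -8202 bases. All 4 of these libraries were treated with oxaliplatin, but how often this holds for other genes with an SE in 2 libraries was not examined. PPM1D, BTG2, SESN1, SESN2, ZMAT3 and TP53INP1 had no SE. None of the 9 genes had an SE in 3 to 13 libraries, the range that the presence test needs, and of the 739 genes tested, 0% were called in any contrast, with 47, 10 and 1 at an unadjusted p below 0.05 for genotype, drug and esiRNA.

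PPM1D (chr17:60600193-60666280, plus strand) encodes the phosphatase WIP1, which dephosphorylates p53 and its upstream kinases and so ends the response. In WT cells its summit folds were 4.67 and 3.20 (esiCT UNT), 4.99 and 3.38 (esiCT OXPT), 3.70 and 3.79 (esiHDAC4 UNT) and 3.90 and 2.93 (esiHDAC4 OXPT). In KO cells they were 5.42 with no peak in replicate B (esiCT UNT), 4.89 and 4.42 (esiCT OXPT), 4.33 and 4.13 (esiHDAC4 UNT), and 6.48 and 4.92 (esiHDAC4 OXPT). The KO libraries tended to lie higher, with a median of 4.89 over 7 against 3.75 over 8, and the ranges overlapped. On the scaled log2 axis KO was above WT in 6 of 7 matched pairs, and the fitted difference was 0.46 ± 0.12 (SE, 15 libraries), a ratio of 1.38, ranked 38 of 5416 by p, with adjusted p = 0.0923 (limma). It was 0.42 within replicate A and 0.52 within replicate B. Its adjusted p stayed above 0.05 in all 23 alternatives in which the gene could be fitted, between 0.0683 and 0.518. In both KO esiHDAC4 libraries of replicate B the largest summit lay in another region (chr17:60599244-60600007) than the main start region (chr17:60600291-60602000). At the main start region alone, KO minus WT was 0.28 ± 0.14 (SE, 14 libraries, adjusted p = 0.318, limma over regions). Limma called 16 of all genes between KO and WT (0.295%), none of these 6, and 15.0% had an unadjusted p below 0.05, PPM1D being the 1 of the 6. The other 5 differed by -0.07 to 0.06, and at CDKN1A and MDM2 these averages joined opposite signs, -0.19 in replicate A and 0.36 in replicate B at CDKN1A and 0.23 and -0.13 at MDM2. In replicate A the largest CDKN1A summit lay in the upstream region in WT and in the start region in KO. For peak number 1.66% of genes were called between the genotypes and none of the 6.

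**Figure D4:**
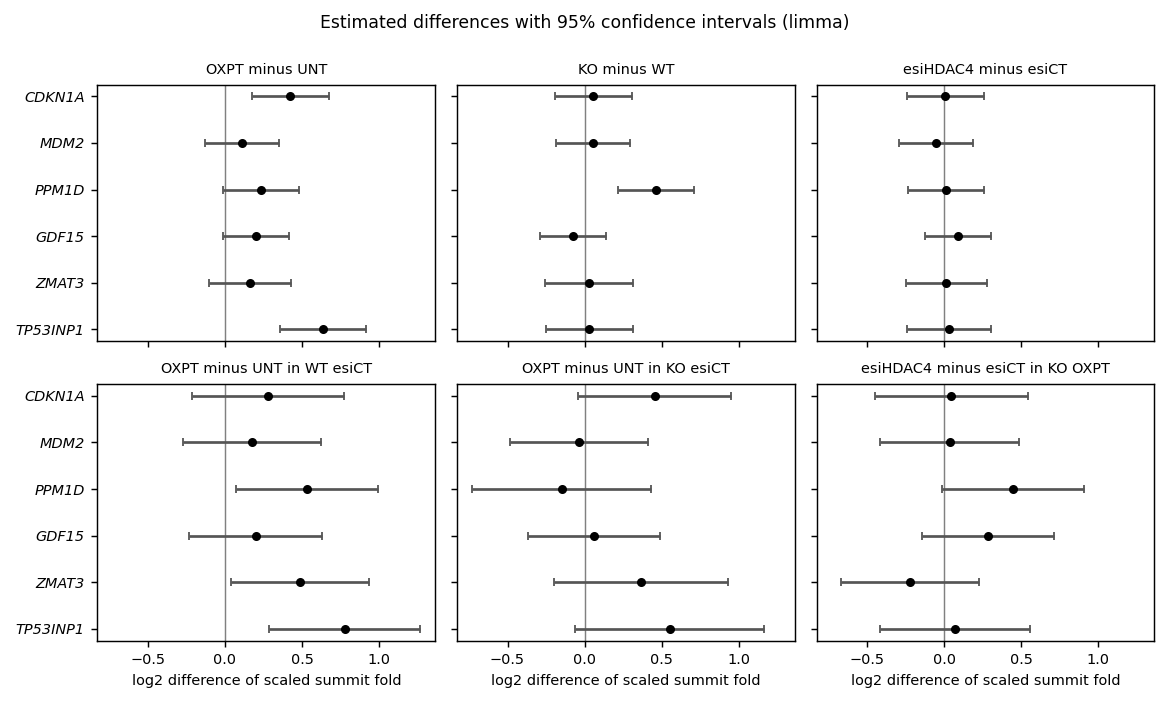
Fitted differences in scaled log2 summit fold (horizontal axis) of the 6 genes tested (vertical axis) for 6 contrasts. Points are limma estimates and bars 95% confidence intervals, not adjusted for the number of genes. The intervals lie above 0 for CDKN1A and TP53INP1 between OXPT and UNT, and for PPM1D between KO and WT. In WT esiCT cells they also do so for TP53INP1, PPM1D and ZMAT3 between OXPT and UNT.

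HDAC4 silencing moved none of the 6 genes past the threshold. Over both genotypes and both treatments the differences between esiHDAC4 and esiCT lay between -0.05 and 0.09 on the log2 scale, and the adjusted p was 1.00 for each (limma). The 95% confidence intervals reached from -0.29 at MDM2 to 0.30 at GDF15 and TP53INP1, so that differences up to that size lie within the intervals. Of all genes 0% were called and 238 (4.39%) had an unadjusted p below 0.05, against 0 of these 6. For peak number 0% were called as well, and for regions 0% were called with 3.81% at an unadjusted p below 0.05, among them 1 of the 9 regions, the GDF15 region at -21203 bases (0.27 ± 0.13 higher after esiHDAC4, SE, adjusted p = 1.00 by limma).

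The drug response was also fitted in esiCT cells of each genotype. In WT esiCT cells TP53INP1 was 0.78 ± 0.24 higher, PPM1D 0.53 ± 0.23, ZMAT3 0.48 ± 0.22, CDKN1A 0.28 ± 0.24, GDF15 0.20 ± 0.21 and MDM2 0.18 ± 0.22 (SE, limma). The smallest adjusted p was 0.401, for TP53INP1. In WT esiCT cells 3 of the 6 had an unadjusted p below 0.05, against 356 of all genes (6.57%), and 0% were called. Without the scaling the differences in WT esiCT cells were negative at CDKN1A (-0.16), GDF15 (-0.24) and MDM2 (-0.27). The other values were then 0.33 for TP53INP1, 0.09 for PPM1D and 0.04 for ZMAT3. In KO esiCT cells TP53INP1 was 0.55 ± 0.30 and CDKN1A 0.45 ± 0.24 higher, ZMAT3 0.37 ± 0.28 and GDF15 0.06 ± 0.21, while MDM2 was at -0.04 ± 0.22 and PPM1D at -0.15 ± 0.28, with adjusted p of 0.957 or more and 244 genes at an unadjusted p below 0.05. The test of the difference between the genotypes' responses called no gene, with 274 at an unadjusted p below 0.05. Its largest value among these genes was -0.68 ± 0.36 for PPM1D (SE, adjusted p = 0.957, limma). In KO cells under oxaliplatin, esiHDAC4 minus esiCT was 0.45 ± 0.23 for PPM1D and 0.28 ± 0.21 for GDF15 and between -0.22 and 0.07 for the other 4, with adjusted p of 0.997 throughout, no gene called and 248 at an unadjusted p below 0.05.

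The other genes of the p53 pathway were compared in the same way. Of 32 listed genes (death receptors and other apoptosis genes, DNA repair and metabolic targets, and MDM4), 30 had a peak in at least 1 library and 23 could be tested. None was called in any contrast. Between OXPT and UNT, 22 of 23 scaled differences were positive, against 62.4% of all genes. Their median was 0.21 on the log2 scale against 0.04 over all genes. Without the scaling the median gene differed by -0.15, and the signs of this list without it are not given here. An unadjusted p below 0.05 was found for 8 of 23 against 8.03% of all. Those 8 values ranged from 0.28 to 0.55, with adjusted p of 0.256 to 0.599 (limma). The 4 with the lowest p, picked after their values were seen, were TRIAP1, an inhibitor of p53-dependent apoptosis (0.55 ± 0.15, SE), PRKAB1, a subunit of AMP-activated kinase (0.54 ± 0.16), RPS27L, a ribosomal protein paralogue (0.52 ± 0.16), and TNFRSF10B, a death receptor for TRAIL (0.42 ± 0.13). Between KO and WT the median was -0.01 and between esiHDAC4 and esiCT 0.03, with 1 and 0 genes at an unadjusted p below 0.05.

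**Figure D5:**
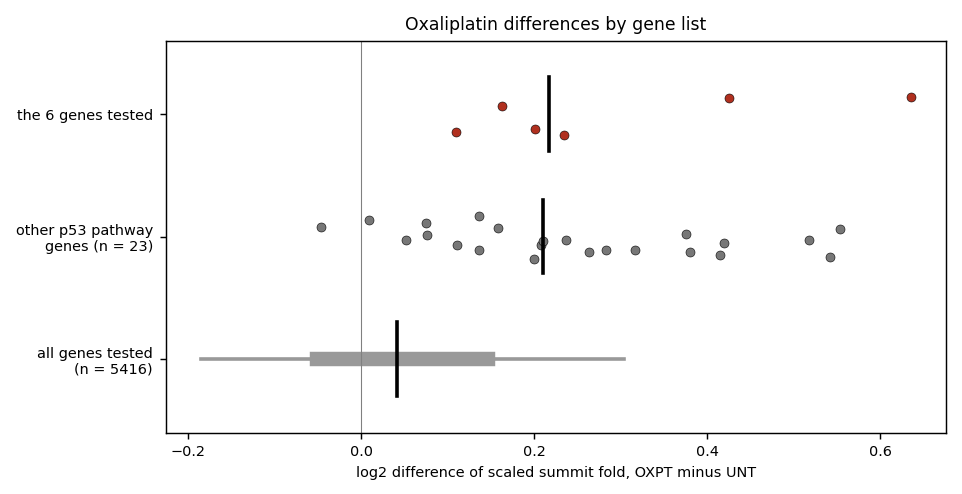
Differences in scaled log2 summit fold between OXPT and UNT (horizontal axis) for the 6 genes tested here, 23 other p53 pathway genes and all 5416 genes. Points are genes, black bars medians, the thick grey bar the range from the 25th to the 75th percentile and the thin grey line that from the 5th to the 95th. The medians are 0.22, 0.21 and 0.04.

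Genes whose height followed that of CDKN1A and MDM2 over the libraries were sought among the genes called in all 16. For CDKN1A these were ABCC2 (Pearson's r = 0.72), PYM1 and DGKA (both 0.71) over 16 libraries among 483 genes. PYM1 and DGKA are neighbours and share a peak. For MDM2 they were PGAM1 and RRP12 (both 0.78), which also share a peak, and CCDC47 (0.76), over 15 libraries among 484 genes. These are descriptions of likeness over libraries that also share scaling and depth.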

How the data were processed

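H3K27ac ChIP-seq reads were trimmed with Trimmomatic 0.39, aligned to hg38 with Bowtie2 2.4.4, cleared of duplicates with SAMtools 1.18 and used for peak calling in each library with MACS2 2.2.7.1, per the labels and the study's methods, and SEs were built with ROSE. In the lists the authors deposited, summit fold is a ratio of pileup to local background, p and q are −log10 values, and the score is an integer made from q. The study's methods kept SEs that carried H3K4me1 as well as H3K27ac. The deposited SE lists give positions only, which do not show whether that filter had been applied to them. No read totals were used, and summit reads were solved from fold and p, with 99.5% to 100% of peaks solved after a pileup scale of 0.968 for WT esiCT UNT replicate B.

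Genes, exons and start sites came from GENCODE 44, and promoters from RefSeq tables of hg38. Python 3.11.15, pandas 2.3.3, scipy 1.17.1 and limma 3.58.1 in R 4.3.3 were used. Peaks counted when they overlapped a window by at least 1 bp. Of 272083 peaks, 533 on other contigs were left out. Limma fits of simulated log2 changes of 1 and 2 recovered 100% of them, with 6.98% false calls. Smaller changes, such as most differences given here, were not simulated. Replicate letter was a block, as in the study's own formula with replicate and condition. Presence was tested with an exact conditional test within letter. The 9 genes were named, and other p53 pathway genes, likeness genes and regions were taken by rules, all chosen with earlier results of these data known. Named regions were called in at least 8 libraries or differed by at least 4 of 8. Other genes of the list were to be named when past the threshold. None passed, 4 were named after their values were seen, and 1 gene of the list is not reported here. The 4 input samples were not analysed here. Alternatives are given in the closing section.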

Additional observations from a re-analysis of the deposited data

How the results depend on the processing

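Between OXPT and UNT, TP53INP1 stayed positive in 22 of 22 alternatives (0.44 to 0.86) and CDKN1A in 25 of 25 (0.26 to 0.51), and PPM1D between KO and WT in 23 of 23 (0.25 to 0.52). Of the 6 genes tested, TP53INP1 gained a call with 3 additive terms (0.63) and without WT esiCT UNT replicate B (0.74), and the MDM2 peak number between KO and WT gained one without scaling (adjusted p = 0.0199, limma). BTG2, outside the planned fit, entered 6 fits between KO and WT, which hold the same 11 values and, for KO, those of replicate A alone. The other values of the 6 genes kept their side of the threshold, and their sign changed in 52 fits and in 62 that left out a library, each time between values that both had an unadjusted p of 0.05 or more. Libraries of the same letter did not all deviate together (correlation of the A minus B difference over 484 genes between 28 pairs of groups, -0.12 to 0.40, above 0.1 in 15), and the letter was kept as a block since the study's own model has it. Without the replicate block, TP53INP1 was 0.54 and CDKN1A 0.42 between OXPT and UNT (adjusted p = 0.610 for both) and PPM1D 0.48 between KO and WT (adjusted p = 0.201). The 16 genes called between KO and WT became 61 without scaling, 0 with missing peaks set to a list's lowest fold, 1 among genes called in every library, 0 with peaks whose −log10 q reached 10, 9 with start sites only, 0 without the replicate block, 28 with 3 additive terms and 26 without the 4 KO libraries of replicate B, a choice made after seeing the data. Additive terms gave 4 genes between OXPT and UNT in place of 0, and the fits without scaling gave 3 between esiHDAC4 and esiCT, 8 between OXPT and UNT in WT esiCT and 3 for the difference of responses, each in place of 0. Of regions, 37 called between KO and WT became 0 without the replicate block and 20 with the stricter q, and 1 between OXPT and UNT became 0 and 3. For peak number, 90 calls between KO and WT became 39 without the replicate block, 1432 without scaling, 4 with the stricter q and 156 with 1 kb windows, and the stricter q gave 1 in place of 0 between OXPT and UNT and 1 in place of 0 between esiHDAC4 and esiCT. Leaving out each library in turn gave 0 to 18 genes called between KO and WT, 0 to 2 between OXPT and UNT, 0 to 3 between esiHDAC4 and esiCT and 0 to 1 between OXPT and UNT in WT esiCT. For regions it gave 5 to 56, 0 to 7 and 0 to 1 in the order genotype, drug and esiRNA, and for peak number 20 to 102, 0 and 0 to 1. Presence of peaks and of SEs gave 0 calls in each alternative run. The causes of these moves were not tested. With 9 to 45 reads at a summit and 2 libraries a group, a single read shifts a fold noticeably, and the 4 KO libraries of replicate B lack peaks found elsewhere.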
